A study of Mus musculus with 2 samples.

Results

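The family of miR-204 and miR-211 comprises 2 mouse hairpin precursors, each of which can give a mature miRNA from its 5p and from its 3p side. The 4 arms were selected by their exact names on the array, where they are 4 of 1881 mouse miRNAs. The selection was made with these data in view, because miR-211-3p was known to be among the brightest names, so its brightness is given here as a description and not as a finding. The RNA came from exosomes, small membrane vesicles that cells release, collected from the supernatant of LLC (Lewis lung carcinoma) cells, a lung tumour line of the mouse. Before collection these cells spent 24 h without serum in the presence of 5 µM cisplatin, a DNA-damaging platinum drug. The samples form 1 group with 2 members, taken from independent experiments and hybridised to a one-colour Agilent array each, and no untreated or other group was analysed here. The data thus show for which arms the probes gave a detected signal with RNA of these vesicles, and with what spread between samples. They hold no comparison with cells that were not treated. Having 2 arrays limits the precision of every value, and no p-value is given.

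A miRNA guides Argonaute proteins to mRNAs that pair with its seed, bases 2 to 8 from the 5′ end, and those mRNAs are then repressed. Of the arms of a hairpin, the guide is usually loaded and the passenger is usually degraded. For miR-204 and miR-211 the guide is the 5p arm. miR-204 lies in an intron of Trpm3 and is known from the retinal pigment epithelium, lens, choroid plexus and pancreatic islets. miR-211 lies in an intron of Trpm1 (melastatin), is transcribed with it under the pigment-cell factor Mitf, and is best known from melanocytes and melanoma. The guides share a seed and both repress Runx2, a transcription factor of bone formation.

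The mature sequences, from RefSeq on build GRCm38.p6, are shown with the seed in capitals because they separate the guides, which are nearly identical, from the passengers, which are not. All 4 arms were found in that table.
mmu-miR-211-3p: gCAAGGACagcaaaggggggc
mmu-miR-211-5p: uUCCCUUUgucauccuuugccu
mmu-miR-204-3p: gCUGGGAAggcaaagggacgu
mmu-miR-204-5p: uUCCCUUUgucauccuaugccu
The miR-211 hairpin lies on the plus strand at chr7:64205806-64205911, with the 5p arm at chr7:64205831-64205852 and the 3p arm at chr7:64205868-64205888. The miR-204 hairpin lies on the plus strand at chr19:22750605-22750672, with the 5p arm at chr19:22750610-22750631 and the 3p arm at chr19:22750649-22750669. The 5p arms are both 22 bases long, agree at 21 positions and differ by A17U, counted from the 5′ end, where miR-204-5p is given first and miR-211-5p after it. The 3p arms are both 21 bases long and agree at 14 positions. Their seeds differ, and their longest shared stretch is GCAAAGGG at bases 10 to 17 of each, in capitals below.
miR-211-3p: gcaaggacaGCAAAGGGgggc
miR-204-3p: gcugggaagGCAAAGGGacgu
In both hairpins this region can pair with the 5p arm. In miR-211, bases 11 to 17 of the 3p arm are the exact reverse complement of bases 3 to 9 of the 5p arm. A run of the same length joins bases 10 to 16 of that 3p arm and bases 14 to 20 of the 5p arm. In miR-204, bases 11 to 18 of the 3p arm match bases 2 to 9 of the 5p arm in the same way.

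Only miR-211-3p, the passenger of the miR-211 hairpin, was detected, and it was detected on both arrays. The guides miR-211-5p and miR-204-5p and the passenger miR-204-3p were detected on neither array. A miRNA counts as detected when the scanner software flags it, which it does when the total signal of at least 1 of its probes exceeds 3 times its error. Over the whole array 201 of 1881 miRNAs (10.7%) were detected on both arrays. With 4 arms, 1 detected arm is no result about the family as a whole.

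Each miRNA had 30 spots per array, spread over 2 probes for miR-211-3p, miR-204-3p and miR-204-5p and over 4 probes for miR-211-5p. Spots and probes of a miRNA share an array and a target and are not replicates. The processed intensity of a spot is background-subtracted, on a linear scale in arbitrary units, and can lie below 0. Brightness depends on the probe as well as on the amount of RNA, so the intensities of different arms stand side by side here without a ratio between them. The 1000 negative-control spots averaged 0.472 on array 1 (SD over spots 2.36) and 1.37 on array 2 (SD over spots 2.81).

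mmu-miR-211-3p had a mean spot intensity of 203.2 on array 1 (SD over 29 spots 10.6) and of 93.3 on array 2 (SD over 29 spots 6.74). Over the 2 arrays its mean was 148.3 ± 77.7 (SD, n = 2). On array 1 its lowest, median and highest spots were 183.9, 203.4 and 224.3, and on array 2 they were 79.5, 93.6 and 105.2. All its spots on array 1 were brighter than all its spots on array 2. On each array 1 of the 30 spots was marked as an outlier and left out, and all of the 29 others were flagged as well above background. Of all 1881 miRNAs, 42 (2.23%) had every spot so flagged on both arrays, and 88 (4.68%) the majority of their spots.

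The probes of miR-211-3p gave nearly the same signal. On array 1 they averaged 207.5 and 198.7, and on array 2 they averaged 93.2 and 93.4. On the log2 scale the gap between them was 0.064 on array 1 and 0.00086 on array 2. Among 175 detected miRNAs with 2 probes, the median gap was 0.65 on array 1 and 0.79 on array 2. A smaller gap than that of miR-211-3p was found for 13 of these miRNAs on array 1 and for 0 on array 2. The listed total of each probe was 9.52 to 9.90 times its error, over 3 times the error on both arrays, and the total per miRNA was 14.0 times its error on array 1 and 13.5 times on array 2. Spot-to-spot spread was 4.02% to 7.80% of the mean per probe and array.

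**Figure D1:**
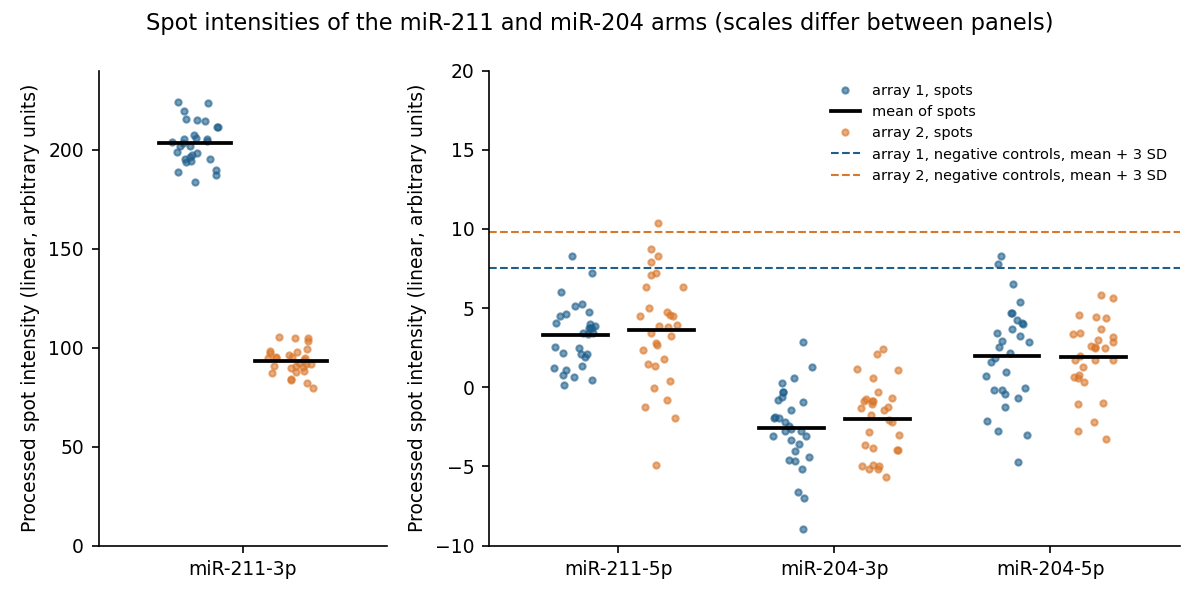
Processed intensity of each spot (points, spread sideways for visibility) of miR-211-3p in the left panel and of miR-211-5p, miR-204-3p and miR-204-5p in the right panel, with black bars for the mean and dashed lines for the mean plus 3 SD of the negative controls. miR-211-3p averaged 203.2 on array 1 and 93.3 on array 2, while the means of the other arms all lie under the negative-control lines of 7.55 and 9.81.

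mmu-miR-211-5p, the guide of the same hairpin, had a mean spot intensity of 3.27 on array 1 and 3.60 on array 2, which is 3.43 ± 0.23 over the arrays (SD, n = 2). Its spots ran from 0.113 over a median of 3.43 to 8.26 on array 1, and from -4.92 over a median of 3.83 to 10.4 on array 2. These means lie 1.19 and 0.79 negative-control SDs above the negative-control mean. None of its 30 spots was well above background on either array. Its 4 probes had totals of 0.684 to 1.87 times their error, so no probe reached the limit of 3. Of the undetected arms it was the one with the highest such ratio.

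mmu-miR-204-5p, the guide of the miR-204 hairpin, averaged 2.0 on array 1 and 1.90 on array 2, or 1.95 ± 0.076 over the arrays (SD, n = 2). Its spots ran from -4.69 over a median of 2.34 to 8.31 on array 1, and from -3.24 over a median of 2.47 to 5.81 on array 2. Its means lay 0.65 and 0.19 negative-control SDs above the negative-control mean. Its probe totals were 0.425 to 0.890 times their error, and 0 spots were well above background. Since the guides differ at only 1 base, whether a probe for one also takes up the other cannot be seen from these files, and neither probe set gave a detected signal.

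mmu-miR-204-3p, the passenger of the miR-204 hairpin, averaged below 0, at -2.54 on array 1 and -2.0 on array 2, or -2.27 ± 0.38 over the arrays (SD, n = 2). Its spots ran from -8.93 over a median of -2.53 to 2.86 on array 1, and from -5.69 over a median of -1.60 to 2.43 on array 2. Of its 30 spots, 26 on array 1 and 25 on array 2 were below 0. The means lay 1.28 and 1.20 negative-control SDs under the negative-control mean, and its probe totals were -1.09 to -0.556 times their error. Its mean intensity was among the lowest on the array, with 25 of the other miRNAs (1.33%) lower on array 1 and 89 (4.73%) lower on array 2. For miR-211-3p, which shares GCAAAGGG with it and holds the same number of G, 98.6% of the other miRNAs were lower on array 1 and 99.0% on array 2.

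**Figure D2:**
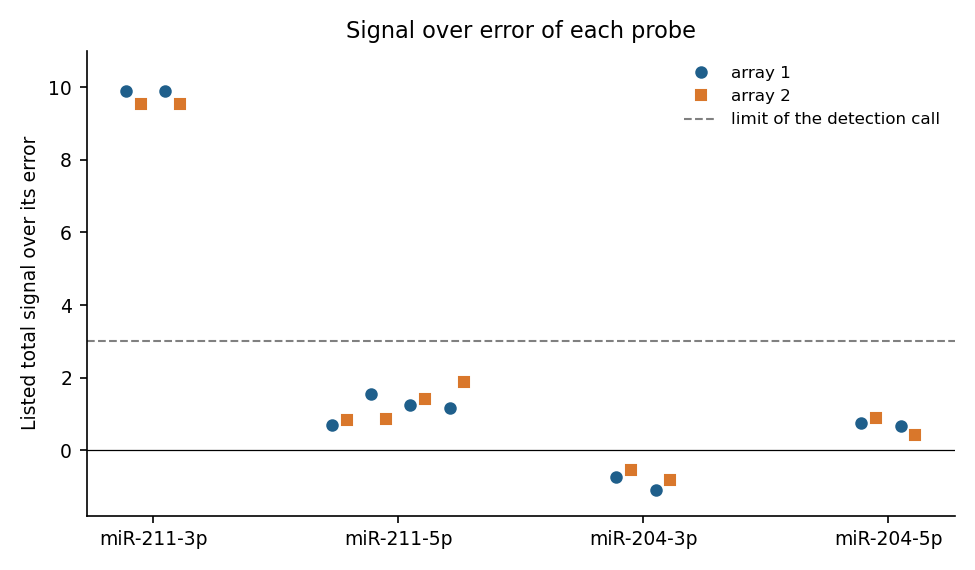
Listed total signal of each probe divided by its listed error, by arm, with circles for array 1, squares for array 2 and a dashed line at 3, the limit of the detection call. Both probes of miR-211-3p lie at 9.52 to 9.90 on both arrays, and all probes of the other arms lie between -1.09 and 1.87.

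The level of a miRNA was taken as the mean of log2 intensities, with intensities under 1 set to 1. Unscaled levels of miR-211-3p were 7.66 on array 1 and 6.54 on array 2. To compare arrays, each was scaled by the 75th percentile of the miRNAs detected on both, and the scaled level of miR-211-3p was then 6.81 on array 1 and 7.40 on array 2, with a mean of 7.10 ± 0.42 (SD, n = 2). By mean level it ranked 22 among the 201 miRNAs detected on both arrays, and 34 when each miRNA was represented by its brightest probe. By array it ranked 26 of the 312 detected on array 1 and 18 of the 202 detected on array 2. Its neighbours in the order were miR-7005-5p at 7.15 ± 0.045 and miR-6360 at 7.04 ± 0.44 (SD, n = 2), both within its spread between the arrays. The unscaled levels of the undetected arms were 1.5 and 1.69 for miR-211-5p, 1.14 and 1.07 for miR-204-5p, and 0.063 and 0.089 for miR-204-3p on arrays 1 and 2. These are near the floor of the log2 scale and carry little information. On arrays 1 and 2, 28 and 26 of the spots of miR-204-3p were at the floor. For miR-204-5p these counts were 12 and 9, and for miR-211-5p they were 4 and 6. By mean intensity, 77.0% and 84.0% of the other miRNAs were lower than miR-211-5p on arrays 1 and 2, and 70.5% and 76.4% lower than miR-204-5p.

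**Figure D3:**
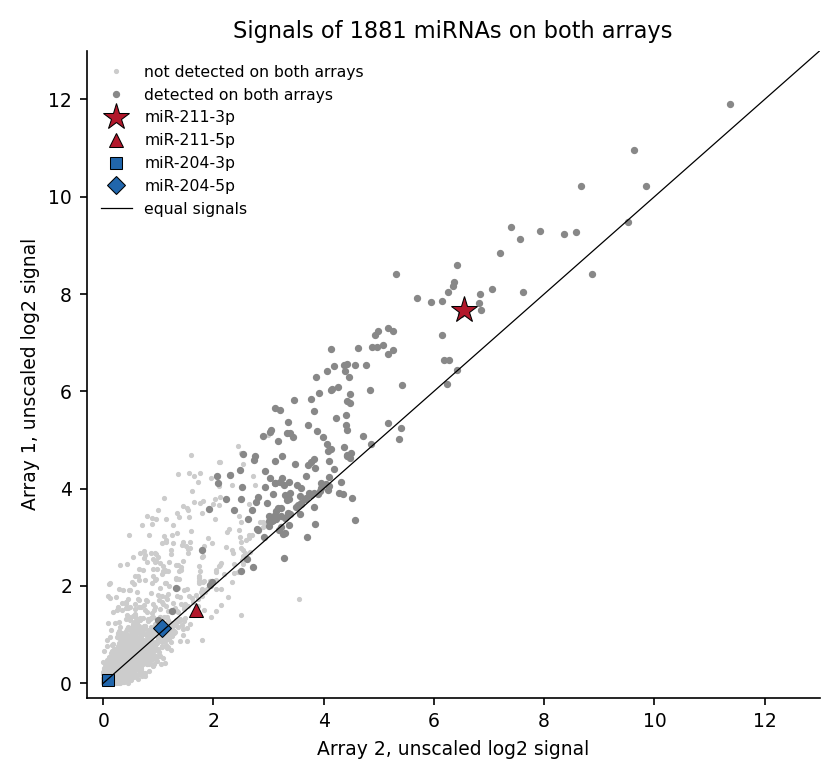
Unscaled log2 level on array 1 against array 2 for 1881 miRNAs (each point 1 miRNA, dark grey where detected on both arrays), with the 4 arms marked and a line of equal signals. miR-211-3p lies among the bright names at 7.66 and 6.54, and the other arms lie at 1.69 or lower on both axes.

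Before scaling, miR-211-3p was 1.12 log2 units brighter on array 1, a ratio of intensities of 2.18. Its probes differed between the arrays by 1.09 and 1.16. Over the 201 detected miRNAs the median difference was 0.78, with quartiles of 0.19 and 1.66, and 75 of the 200 others had a larger difference than miR-211-3p. The 4 spike-in controls that were detected lay 0.062 to 0.27 apart. miR-211-3p thus differed by more than the spike-in controls and lay within the quartiles of the detected miRNAs. The direction depends on the scaling: after scaling by the 75th percentile, which removes 1.71 log2 units, the difference was -0.59, and array 2 was the brighter. The authors' deposited table gives log2 values of 5.41 on array 1 and 5.84 on array 2 for miR-211-3p, also higher on array 2. Both columns of that table hold the same sorted values, as quantile normalization gives, so its direction is not independent of scaling. In the authors' deposited table the other 3 arms hold its lowest value of -3.32 on both arrays. That value is the log2 of 0.1, the placeholder total listed for these undetected arms, and is not a measured level. It is also the median of the table, as 1569 of the 1881 miRNAs hold it on each array.

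**Figure D4:**
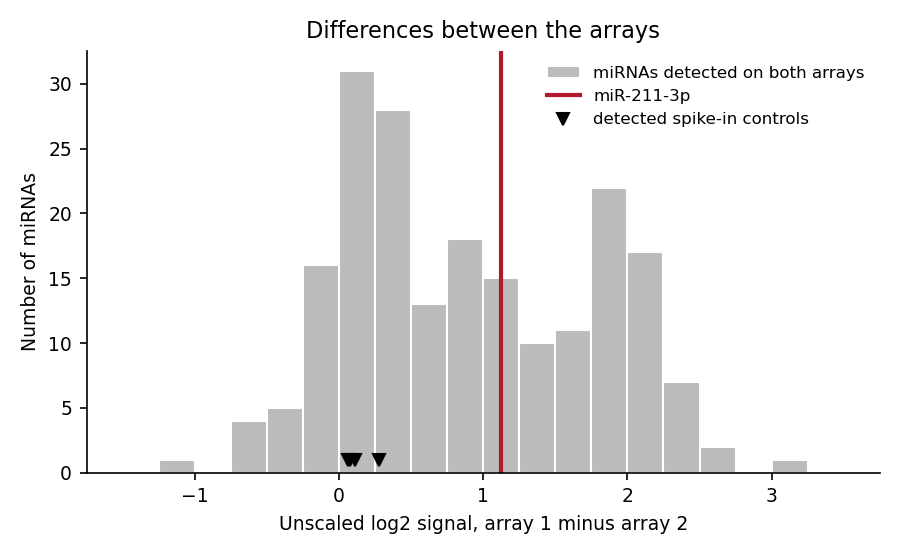
Number of the 201 miRNAs detected on both arrays (bars, width 0.25) by the difference of unscaled log2 levels, array 1 minus array 2, with a line for miR-211-3p and triangles for the 4 detected spike-in controls. miR-211-3p lies at 1.12, between the quartiles of 0.19 and 1.66, and the spike-in controls lie at 0.062 to 0.27.

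Detection of a 3p arm without its 5p arm was the pattern of 56 of the 723 hairpins that have both arms on the array, while 60 had the 5p arm alone, 10 both arms and 597 neither. In 53 of the 56 the 5p arm was detected on neither array, as for miR-211. By level miR-211-3p ranked 3 among these 56 3p arms, after miR-494-3p with unscaled levels of 11.90 and 11.37 and miR-5622-3p with 8.41 and 8.88. The next were miR-29a-3p with 7.91 and 5.69 and miR-370-3p with 6.65 and 6.27. Their 5p arms had unscaled levels of 0.28 to 1.12. For miR-29a, and for miR-130a, miR-23a and miR-27a further down, the 3p arm is the known guide, whereas for miR-211 it is the passenger. These hairpins were named by their rank, after their values were seen.

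The miRNAs whose pair of unscaled levels lay nearest to that of miR-211-3p were miR-6360, miR-3960, miR-3963, miR-1187 and miR-6931-5p. The distance in the plane of both arrays was 0.089 for miR-6360, with levels of 7.59 and 6.49. It was 0.30 for miR-3960, 0.32 for miR-3963, 0.44 for miR-1187 and 0.45 for miR-6931-5p. Likeness over 2 arrays says only that the signals were similar in size on each.

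The 3p arms are rich in G and the 5p arms are poor in it. miR-211-3p and miR-204-3p hold 10 G in 21 bases, or 47.6%, and 66.7% and 61.9% G or C. Both guides hold 2 G in 22 bases, or 9.09%, and 45.5% G or C. Over the 1608 array names with a RefSeq sequence, of which 168 (10.4%) were detected on both arrays and 261 (16.2%) on array 1, the median was 26.3% G. The 3p arms hold a larger share of G than 90.3% of these names and the 5p arms than 3.54%. Among the 102 names with exactly 10 G, miR-211-3p and miR-204-3p included, 18 (17.6%) were detected, and among the 101 names with 2 G, 9 (8.91%) were. Across the 168 detected miRNAs the share of G and the mean unscaled level were related with Pearson's r = 0.29 and Spearman's rho = 0.28. Across all 1608 these were 0.12 and -0.16. The points share 2 arrays and related sequences, and are a description only.

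The 3p arms part in how their G are placed. The longest run of G is 6 in miR-211-3p, at bases 15 to 20, and 3 in miR-204-3p. A run of 6 G, searched as GGGGGG on the mature strand alone, occurs in 4 of the 1679 mature names in the RefSeq table (0.238%), all of them on the array. They are shown with the longest run in capitals because they are the names nearest to miR-211-3p in this feature, which was examined after the values were seen.
miR-211-3p: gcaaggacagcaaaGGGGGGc
miR-8110: aagcguggauuGGGGGGGGGG
miR-6944-5p: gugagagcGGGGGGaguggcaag
miR-6909-5p: caGGGGGGcuggaaugggcacu
Their mature positions on GRCm38.p6 are chr8:89024791-89024811 on the plus strand for miR-8110, chr13:55477754-55477776 on the minus strand for miR-6944-5p and chr10:79531064-79531085 on the minus strand for miR-6909-5p. miR-8110 was detected on both arrays with unscaled levels of 9.27 and 8.58, and miR-6944-5p with 5.62 and 3.21. miR-6909-5p, whose run lies at bases 3 to 8, was detected on neither array, with 0.17 and 0.46. Thus 3 of the 4 names with such a run were detected, miR-211-3p among them, and 1 was not. By longest run of G, 46 of 480 names (9.58%) with a run of 0 or 1, 60 of 639 (9.39%) with 2, 27 of 307 (8.79%) with 3, 26 of 143 (18.2%) with 4 and 6 of 35 (17.1%) with 5 were detected. The 4 names of 6 or more are too few for a share to be read. The part of base composition in the signal of miR-211-3p was not tested, and the probe sequences were not used here.

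**Figure D5:**
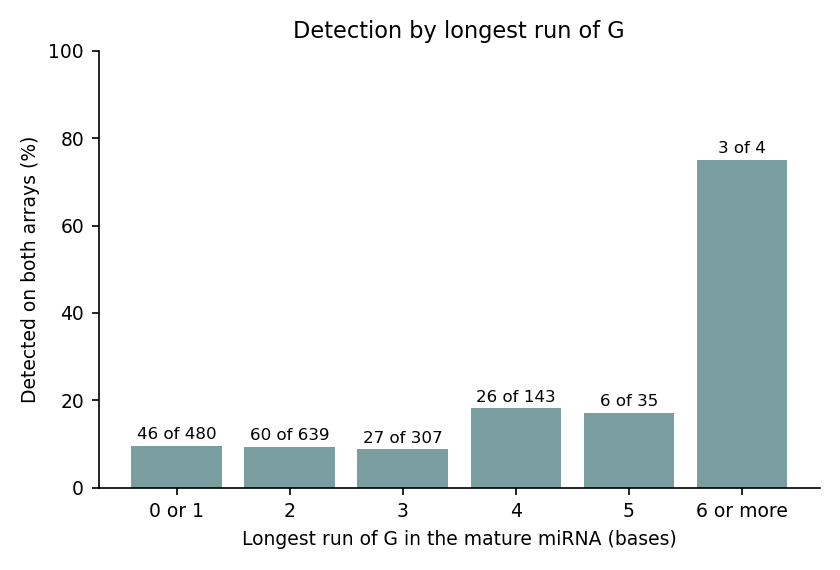
Percent of array names with a RefSeq sequence that were detected on both arrays (bars, from 0), by the longest run of G in the mature miRNA, with the number detected of the number in each class above the bar. Shares were 8.79% to 9.58% for runs up to 3, 18.2% and 17.1% for runs of 4 and 5, and the last bar holds only 4 names, miR-211-3p among them.

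Names that share sequence with the arms in other ways gave no detected signal. The seed of both guides is also that of miR-7670-3p, and the seed of miR-204-3p is that of miR-7684-5p, while no other mature name in the table has the seed of miR-211-3p. They are shown with the shared bases in capitals, together with miR-6370, the only further name with GCAAAGGG, a stretch found in 3 of 1679 mature names (0.179%) on the mature strand.
miR-7670-3p: uUCCCUUUcugaauaucuguaga
miR-7684-5p: uCUGGGAAgccugggcagcag
miR-6370: gcaggaacaGCAAAGGGgaag
They lie at chr6:38507371-38507393 on the plus strand, chr15:82393958-82393978 on the minus strand and chr6:19555438-19555458 on the plus strand of GRCm38.p6. Unscaled levels on arrays 1 and 2 were 0.49 and 0.82 for miR-7670-3p, 2.21 and 0.91 for miR-7684-5p, and 0.27 and 0.20 for miR-6370. miR-6370 carries GCAAAGGG at the same distance from the 5′ end as the 3p arms do. Of these 3 names with the stretch only miR-211-3p, chosen with its brightness known, was detected. Over all 1608 names with a sequence, 168 (10.4%) were detected on both arrays. With so few names, these counts are no result about shared sequence.

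Other miRNAs that meet the family in its known circuits were mostly undetected. Of 8 miRNAs known to repress Mitf, the activator of the miR-211 host gene, 0 were detected on both arrays. miR-155-5p was detected on array 1 only, with unscaled levels of 3.11 and 2.25, and miR-137-3p, miR-148a-3p, miR-148b-3p, miR-182-5p, miR-218-5p, miR-101a-3p and miR-340-5p on neither. The median unscaled level of the 8 was 0.62, and that of all 1881 miRNAs was 0.49. The list of 11 miRNAs known to repress Runx2 holds miR-204-5p but not miR-211-5p, itself detected on neither array. Of the 11, 2 were detected on both arrays, miR-23a-3p at a scaled level of 5.46 ± 0.32 and miR-34c-5p at 5.17 ± 0.073 (SD, n = 2). Called by the majority of spots instead (4.68% of all miRNAs), the count was 1, as miR-34c-5p was lost. The other 9, miR-204-5p included, were detected on neither array, and the median of the 11 was 1.26. Both shares are to be read against the 10.7% over all miRNAs, and with so few members neither list is shown to stand apart.

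Markers of the eye and of pancreatic islets, where miR-204 is known, and of other cell types were looked up in the same way. No marker of melanocytes or of the choroid plexus was among them. Of 4 from the eye, array 1 alone detected miR-183-5p and miR-96-5p, and neither array detected miR-184-3p or miR-182-5p. Of 2 from pancreatic islets, miR-7a-5p was detected on array 1 only, with levels of 2.38 and 1.41, and miR-375-3p on neither. None of 3 neural miRNAs (miR-124-3p, miR-9-5p and miR-128-3p) was detected on either array. The same held for 5 epithelial miRNAs of the miR-200 family and for the red cell miRNAs miR-451a and miR-486a-5p. Of the leukocyte miRNAs, array 1 alone detected miR-142a-3p, and neither array detected miR-223-3p. In all, 0 of these 18 markers were detected on both arrays, where 10.7% of all 1881 miRNAs were, and 4 on array 1, where 312 of all 1881 (16.6%) were. With so few markers these counts are not shown to differ from the array as a whole.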

How the data were processed

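Exosome RNA of 2 samples was profiled on one-colour (Cy3) mouse miRNA arrays, and samples were grouped by their labels. Per the file headers and the submitters' processing notes, spot intensities on a linear scale were made with Agilent Feature Extraction 10.7.1.1 by background subtraction with spatial detrending, and were not normalized between arrays. Per the labels' protocols a kit for labelled cRNA was used, whereas the file headers name a miRNA protocol. Both arrays share a grid and scan time in the file headers, so neither could be tested as a batch. The detection flag equalled the rule on probe totals for all 1881 names on both arrays. Control types and the flags used for outliers, background and detection are other columns that the authors deposited. A value table on the log2 scale, deposited by the authors, has the same sorted values in both columns, as quantile normalization gives. How the table was centred is unknown here, and it served as an alternative.

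Outlier spots were left out, 1011 miRNA spots on array 1 and 1094 on array 2, and 0 spots were saturated. Levels were means over spots, then over probes, of log2 intensity with a floor of 1. For scaled levels the 75th percentile of the names detected on both arrays (6.29 on array 1 and 4.58 on array 2) was subtracted and the mean of both added back. The arms, the lists and the descriptions were chosen with earlier results of these data known. Named were the arms, the 5 nearest miRNAs, names that share a seed with an arm, list members and markers. Rank neighbours, the bright 3p arms, miR-6370 and the names with runs of G were chosen after their values were seen. With 1 group there was no test. RefSeq sequences (GRCm38.p6) matched 1608 of 1881 names. Alternatives changed the detection call, background correction, scaling, floor, outlier spots, probe summary and arrays used. Calculations used Python 3.11.15, numpy 2.4.6, pandas 2.3.3, scipy 1.17.1, matplotlib 3.10.9, R 4.3.3 and limma 3.58.1, and were tested on simulated arrays.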

Additional observations from a re-analysis of the deposited data

How the results depend on the processing

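miR-211-3p was the only arm of the 4 that was detected under each of the alternatives run: either array alone, at least 1 array, the majority of spots flagged above background, a mean over the negative controls by 3 SD, and a listed total over 6 times its error. Its scaled level was 7.10, and 6.81 to 7.40 with an array left out. It was 7.64 with normexp and an offset of 50, 5.87 from the listed total per miRNA, 5.87 from the sum of detected probes and 5.62 in the authors' table, which stand on other scales by construction. Its rank of 22 was 34 by the brightest probe and 18 to 29 otherwise. The difference between its arrays, 1.12 unscaled, was -0.59 after scaling over detected miRNAs, -0.34 after quantile normalization and -0.43 in the authors' table. It was 0.78 with the percentile over all miRNAs, 0.79 with normexp and 1.03 when centred on the spike-in controls. Levels of the undetected arms reached 5.81 to 5.95 with normexp, whose offset sets a floor, and -2.81 for miR-204-3p with a floor of 0.1. Detected members of the Mitf list were 0 to 1 and markers 0 to 4 with an array left out, and 1 and 4 on at least 1 array. The Runx2 list had 1 by the majority of spots, miR-34c-5p being lost. Over all miRNAs, 201 detected names became 88 by the majority of spots and 85 over 6 times the error. With a mean over the negative controls by 3 SD they were 157. The count was 202 to 312 with an array left out and 313 on at least 1 array. No paired analysis was possible because there is 1 group.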

Other observations

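Where in the mature sequence a run of G lies was examined after the values of miR-211-3p were seen, and the counts are given as a description. Of the 182 names with a run of at least 4 G, 63 have the centre of their longest run past the midpoint of the sequence, toward the 3′ end, and 119 have it before. Among the 63, which include miR-211-3p and miR-8110, 19 (30.2%) were detected on both arrays. Of the 119 with a run nearer the 5′ end, which include miR-6944-5p and miR-6909-5p, 16 (13.4%) were. The run of miR-6944-5p, at bases 9 to 14 with 9 bases after it, lies close to the middle. Over all 1608 names with a sequence the share was 10.4%. On array 1 the counts were 28 (44.4%) and 28 (23.5%), with 16.2% over all names, and on array 2 they were 19 (30.2%) and 16 (13.4%), with 10.4% over all names. The run of miR-211-3p ends 1 base from the 3′ end. Because miR-211-3p was chosen with its brightness known, its detection lends no weight to the split. The names before and past the midpoint were not matched for length of run or number of G. The part of the run itself in the detection of these names was not tested.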
